A study of Caenorhabditis elegans with 2 samples.

Results

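The regions described here were 447 strong intergenic sites away from annotated promoters, out of 30000 candidate regions of chromatin recovered with a tagged HLH-13 protein in *Caenorhabditis elegans* embryos. They were taken from the 3000 candidates of highest pooled signal. A member had its summit, the position of highest enrichment within the region, in no protein-coding gene. The summit also lay outside the window from 1000 bp upstream to 200 bp downstream of every protein-coding transcript start, and not within 100 bp of a tRNA, snoRNA, snRNA, miRNA or ncRNA gene. The other best regions comprised 980 with summits at coding promoters, 1002 in gene bodies and 571 at those non-coding genes. A further 4909 candidates, ranked below 3000, met the same position conditions and are called lower-ranked intergenic regions.

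Chromatin immunoprecipitation and sequencing with an antibody against GFP was done on whole late embryos of strain OP744. This strain carries the integrated transgene wgIs744, in which hlh-13 is fused to TY1, EGFP and 3xFLAG tags beside a copy of unc-119(+), in an unc-119(tm4063) background. Embryos were obtained by egg bleaching, were 3.5 hours old and pooled both sexes, and the 2 biological replicates carried the same alleles and formed the only group. No embryos without the transgene are in the group, so recovery without tagged protein was not measured beside these values.

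HLH-13 is a basic helix-loop-helix factor of the Ptf1a family, which is known in animals for roles in neurons. Proteins of this class bind DNA as dimers at E-boxes, short sites of the form CANNTG. Intergenic DNA of this compact genome holds distant regulatory elements, but also tandem repeats, pseudogenes and unannotated non-coding genes. On the X chromosome it also holds recruitment elements of the dosage compensation complex, which lowers the expression of X-linked genes in hermaphrodites.

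Short stretches of reference sequence are shown for the members that carry the main patterns, 5′ to 3′, from RefSeq's copy of WBcel235 (ce11). The first set shows members counted as lying on tandem repeats, by a measure that covers 100 bp on either side of the summit. These are the members of this kind in the authors' optimal set, except rank 7, each with 40 bp on either side of the summit. Capitals mark the first stretch of the best repeat distance, where that distance was 40 bp or less.
Rank 19, chrIII:931566-931646, plus strand: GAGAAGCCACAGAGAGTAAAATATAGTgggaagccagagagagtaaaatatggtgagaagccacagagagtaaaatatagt
Rank 46, chrX:5056380-5056460, minus strand: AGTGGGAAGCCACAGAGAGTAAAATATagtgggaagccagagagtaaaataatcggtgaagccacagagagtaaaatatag
Rank 84, chrV:12510129-12510209, plus strand: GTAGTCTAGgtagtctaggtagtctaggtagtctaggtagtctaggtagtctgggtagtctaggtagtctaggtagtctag
Rank 114, chrIV:11071029-11071109, minus strand: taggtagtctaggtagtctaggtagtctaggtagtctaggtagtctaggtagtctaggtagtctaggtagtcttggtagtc
Rank 175, chrV:5284761-5284841, plus strand: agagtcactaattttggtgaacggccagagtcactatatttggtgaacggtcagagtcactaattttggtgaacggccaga
Rank 180, chrII:10336310-10336390, plus strand: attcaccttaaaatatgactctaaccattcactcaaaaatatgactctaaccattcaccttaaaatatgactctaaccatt
Rank 250, chrII:5097685-5097765, plus strand: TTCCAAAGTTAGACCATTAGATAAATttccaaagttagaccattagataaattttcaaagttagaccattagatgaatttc
Rank 279, chrX:1644104-1644184, plus strand: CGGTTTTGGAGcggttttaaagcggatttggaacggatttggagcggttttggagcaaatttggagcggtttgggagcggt
Rank 293, chrII:7883270-7883350, plus strand: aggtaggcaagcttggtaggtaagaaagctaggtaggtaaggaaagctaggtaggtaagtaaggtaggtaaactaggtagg
Rank 347, chrV:11638850-11638930, plus strand: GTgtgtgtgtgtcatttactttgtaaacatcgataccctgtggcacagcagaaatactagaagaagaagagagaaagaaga
Ranks 19 and 46 shared 1 repeat on different chromosomes, and so did ranks 84 and 114. In rank 347 the GT repeat is at the left edge of the printed stretch, and the summit itself lies outside it.

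The second set shows the 6 members with the core of the MEX motif, which is known as the motif of X-chromosome recruitment elements of the dosage compensation complex. Capitals mark the 10 bases of the core on either strand, with 25 bp on each side.
Rank 142, chrX:4209241-4209300, plus strand: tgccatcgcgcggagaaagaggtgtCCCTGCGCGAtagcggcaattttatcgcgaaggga
Rank 172, chrX:11094201-11094260, plus strand: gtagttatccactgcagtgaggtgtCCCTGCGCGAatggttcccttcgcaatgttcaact
Rank 242, chrX:16682147-16682206, plus strand: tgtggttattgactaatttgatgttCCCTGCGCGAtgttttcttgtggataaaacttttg
Rank 257, chrX:8036376-8036467, plus strand: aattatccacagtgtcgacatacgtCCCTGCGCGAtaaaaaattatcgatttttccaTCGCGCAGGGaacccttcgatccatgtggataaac
Rank 258, chrX:806647-806706, plus strand: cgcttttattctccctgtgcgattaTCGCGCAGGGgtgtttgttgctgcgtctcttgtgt
Rank 1556, chrX:11899339-11899398, plus strand: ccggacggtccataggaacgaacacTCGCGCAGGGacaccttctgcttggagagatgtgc
Rank 257 held the core on both strands.

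Signal is the authors' enrichment value for a region. No source used here gives its scale. Pooled signal chose the members, so its values describe them and support nothing. It ran from 52.3 to 502 over the members, with a median of 59.6 and quartiles of 54.9 and 66.3, against a median of 33.1 over the lower-ranked intergenic regions. The weakest 3 members, at ranks 2976, 2990 and 2997, had signals of 52.4, 52.3 and 52.3. The next 3 regions that met the position conditions, at ranks 3004, 3015 and 3016, had signals of 52.3 each. The values ran on across the threshold without a gap.

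The optimal set is the authors' list of regions that passed the irreproducible discovery rate across replicates. It held 1.41% of all candidates, and 33 of the 447 members (7.38%, 95% Wilson interval 5.30 to 10.2%). Of the other best regions it held 12.6% at promoters, 2.79% in gene bodies and 41.9% at non-coding genes. The rule itself used pooled rank, which also orders the optimal set, so nothing is read from these differences. By chromosome the 33 members comprised 10 on X, 9 on V, 5 on I, 4 on II, 3 on IV and 2 on III.

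Regions that met the position conditions were scarce at the head of the list. They made up 5.0% of ranks 1 to 100 and 8.67% of ranks 101 to 423, the end of the optimal set. The share was 13.7% at ranks 424 to 1000, 16.4% at ranks 1001 to 2000 and 17.1% at ranks 2001 to 3000. It was 18.1% at ranks 3001 to 6000 and 18.2% below. Positions that meet the conditions cover 24.1% of the genome, so each of these bins lay under that share.

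Tandem repeats were frequent among the members of highest signal. A summit was counted as lying on one where, within 100 bp on either side, at least 60% of bases equalled the base a fixed distance of 2 to 100 bp further on. This held for 37 members (8.28%, interval 6.06 to 11.2%), 142 lower-ranked intergenic regions (2.89%, 2.46 to 3.40%), 47 of the best regions in gene bodies (4.69%) and 16 at promoters (1.63%). Along the ranks, 4 of the 5 members in the first 100 lay on a repeat, and 7 of the 28 members at ranks 101 to 423 (25%). The share fell to 8.86%, 6.10% and 5.26% in the next bins of members, and to 2.72% below rank 6000. These shares describe a ranking that the members were drawn from, and they were not tested. Chosen by the same rule from replicate 1 alone, 9.69% of 485 regions lay on a repeat, and from replicate 2 alone 5.25% of 457 did.

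**Figure D1:**
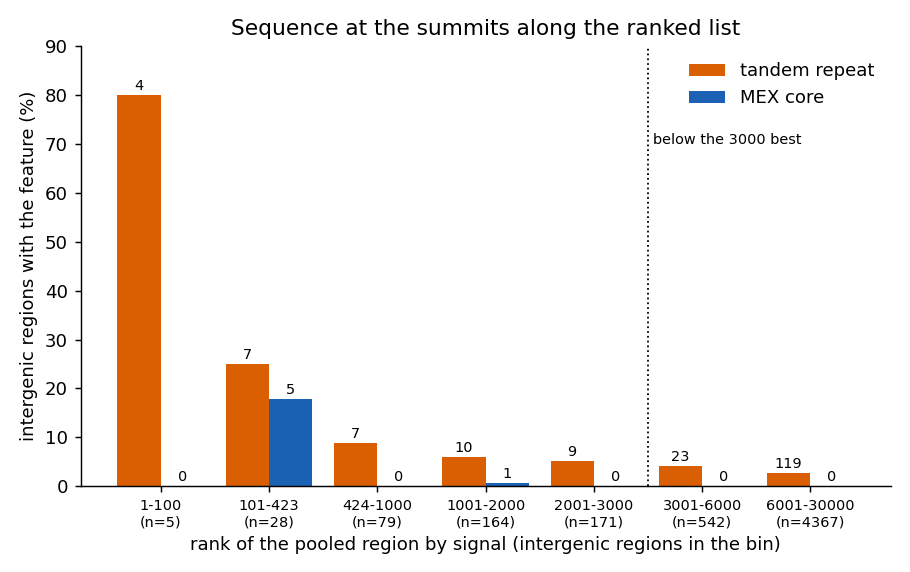
Share of intergenic regions (%) with a tandem repeat (orange) or the MEX core (blue) within 100 bp of the summit, by rank of the pooled region; n under each bin is the number of regions that met the position conditions, and numbers over bars are regions. Repeats were at 4 of 5 regions in the first bin and at 2.72% in the last, while 5 of the 6 members with a MEX core fell at ranks 101 to 423.

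The 37 repeats had a median repeat distance of 27 bp, from 2 to 97 bp. Most also contained repeated 32-mers: 31 of the 37 held at least 1 stretch of 32 bases within 50 bp of the summit that occurs more than once in the genome. Copies within the same repeat array and copies at other places were not told apart. Where a read could have come from several places is not recorded in region lists, and how the authors placed such reads is not stated in these sources. The part of repeated sequence in these signals was not tested. Over all members the share with some repeated 32-mer was 13.9% (62 of 447, interval 11.0 to 17.4%), close to the 14.5% of lower-ranked intergenic regions, while among the 33 optimal members it was 36.4% (12 of 33).

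The best member of all, at rank 7, lay on chromosome I with its summit at 933517, in a divergent interval between prhg-1 and nas-30, which encodes an astacin metalloprotease. Its signal was 502 in the pooled list, 324 in replicate 1 and 218 in replicate 2. It was the region of rank 1 in replicate 1 and of rank 8 in replicate 2. Of its 32-mers 67.1% were unique.

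This member was the head of a family of 9 members that shared sequence, on all 6 chromosomes. Sharing meant at least 10 distinct 16-mers in common within 185 bp of the summits, on either strand. Rank 19, between pef-1 and the F-box gene fbxa-55 on chromosome III, had signals of 299 pooled, 177 in replicate 1 and 134 in replicate 2. Rank 46, between Y64H9A.2 and C24H10.4 on X, had 233 pooled, 157 in replicate 1 and 84.6 in replicate 2. These 3 were the optimal members of the family.

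The other 6 copies were weaker. Rank 687 on chromosome IV had a signal of 73.0 pooled, 75.2 in replicate 1 and 66.0 in replicate 2. Rank 786 on chromosome II had 70.4 pooled, 44.7 in replicate 1 and 23.4 in replicate 2. Ranks 1083 on IV, 1121 on III, 1616 on X and 1803 on V had pooled signals of 65.0, 64.5, 59.7 and 58.2. All 9 lay on tandem repeats, and 8 of the 9 ranked better in replicate 1 than in replicate 2. A distance of 27 bp, or a multiple of it, was the best repeat distance in 8 of the 37 repeat members. That count is of distance alone, in any sequence, and does not place those 8 in the family. By the measure of shared sequence, the family's sequence was in no other of the 3000 best regions and in 24 of all 30000 candidates.

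A pair of members shared a 9-bp unit, read as gtagtctag above. Rank 84, between the neuropeptide-like gene nlp-46 and T28H10.2 on chromosome V, had a signal of 190 pooled, 108 in replicate 1 and 77.0 in replicate 2. Rank 114, between the transthyretin-related gene ttr-17 and Y5F2A.4 on chromosome IV, had 165 pooled, 110 in replicate 1 and 67.6 in replicate 2. Both were stronger in replicate 1, and only 18.6% and 7.14% of their 32-mers were unique.

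The remaining optimal members on repeats fell outside those families by the measure of shared sequence. Whether they are more distantly related to them was not tested. Rank 175 on chromosome V (signal 125) had 62.3 in replicate 1 and 70.9 in replicate 2. Rank 180 on chromosome II (signal 124) lay between appg-1 and pro-2, with 60.8 and 71.5. Rank 250 on II (signal 106) had 61.0 and 43.9, and rank 279 on X (signal 101) had 55.7 and 48.8.
Rank 293 on II (signal 99.7) lay 543 bp from the 3′ end of perm-1, in the interval before the patched gene ptc-1, with 42.6 and 52.5. Rank 347 on V (signal 92.5) lay between sipa-1 and bir-1, a survivin gene, with 43.5 and 52.4. In these 6 the replicates took no common order, with replicate 1 higher in 2 and lower in 4. Over all 34 repeat members found in both replicates, 23 ranked better in replicate 1, against 196 of the 420 members found in both.

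In all, 55 members fell into 19 groups that shared sequence by this measure. Of those groups, 9 were neighbours on 1 chromosome, within 1000 bp of each other. Overlap of the compared windows was not excluded, so neighbours may share the same bases and not copies of a repeat. The next groups by size, of 7 members each, held no optimal member and had best ranks of 902 and 1152. Their sequence was in 116 and 429 of all candidates, against 24 for the family of rank 7.

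**Figure D2:**
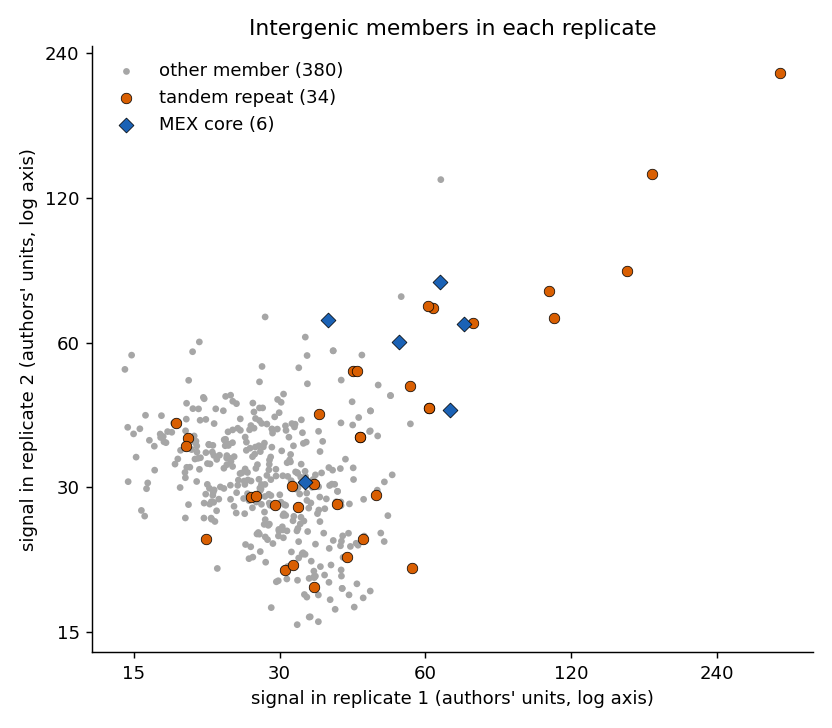
Signal of each member in replicate 1 and replicate 2 (authors' units, log axes) for the 420 members with a candidate region in both; orange points lie on a tandem repeat, blue diamonds hold the MEX core, and grey points hold neither. The repeat member of rank 7 is highest in both, with 324 and 218, and the highest grey point is rank 68, with 64.6 and 131.

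The second pattern at the head of the list was the MEX core. The genome holds 19 copies of those 10 bases on X and 6 on the autosomes, counted on both strands. Of the 19 on X, 12 lay within 100 bp of the summit of a candidate, and these 12 were all at regions among the best 3000. The optimal set covered 9 of the copies. None of the 6 autosomal copies lay at a candidate, and 7 copies on X did not either.

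Members held 8 of these 12 copies, in 6 regions, all on X. That is 6 of the 102 members on X (5.88%, interval 2.72 to 12.2%), 2 of 137 best regions in gene bodies on X, 2 of 126 at promoters on X and 0 of 189 at non-coding genes on X. None of the 345 members on autosomes had the core (interval up to 1.10%), nor did any of the 4909 lower-ranked intergenic regions (up to 0.0782%) or the flanks of the members 400 bp away. All 32-mers at the 6 members were unique.

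Rank 142, between F20B6.9 and hpk-1, a homeodomain-interacting protein kinase gene, had a signal of 141 pooled, 64.4 in replicate 1 and 80.1 in replicate 2. Rank 172, between W04G3.11 and W02H3.3, had 127 pooled, 72.0 in replicate 1 and 65.6 in replicate 2. A second core lay 100 bp from its summit. Rank 257, between C34D10.1 and xol-1, had 105 pooled, 52.9 in replicate 1 and 60.2 in replicate 2. xol-1 is the switch gene of sex determination, and the summit lay 4880 bp upstream of its start.
Rank 242, between F22H10.2 and F22H10.11, had 107 pooled, 67.5 in replicate 1 and 43.4 in replicate 2, with the core 83 bp from the summit. Rank 258, between gtr-1 and F25E2.2, had 104 pooled, 37.8 in replicate 1 and 66.9 in replicate 2. Rank 1556, between Y62H9A.9 and Y62H9A.10, was the weakest, with 60.1 pooled, 33.8 in replicate 1 and 30.8 in replicate 2. Replicate 1 ranked 3 of the 6 better, and 5 of the 6 were among the 3000 best regions of both replicates.

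**Figure D3:**
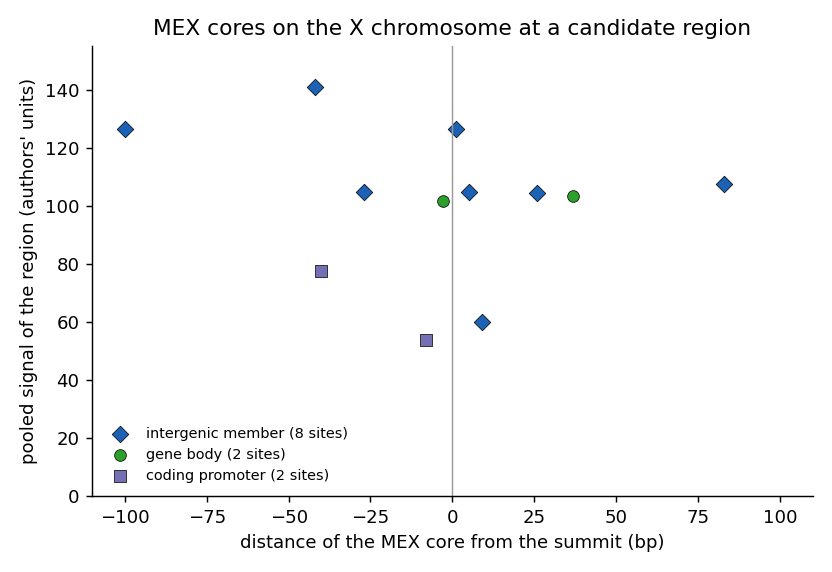
Pooled signal (authors' units) of the X-linked candidate regions with a MEX core within 100 bp of the summit, against the distance of the core from the summit (bp, plus strand), with a point for each of the 12 copies. Of the 8 copies in intergenic members, 7 lie in regions with signals above 100, and the 2 copies at promoters lie in regions of 77.6 and 53.7.

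A shorter form, its last 8 bases GCGCAGGG, was less specific. It was within 100 bp of 8 members (1.79%) and of 8 lower-ranked intergenic regions (0.163%). Its 81 copies on X had a candidate in 25 cases and its 233 autosomal copies in 28. The added pair of members were rank 159 on X, at the pseudogene T26C11.3, and rank 2698, between pop-1 and ccb-2. Rank 159 had a signal of 131 pooled, 53.5 in replicate 1 and 74.8 in replicate 2.

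Together, tandem repeats and MEX cores covered 16 of the 33 optimal members, and 16 of the 25 best members (11 and 5). No member held both. The best member with neither was rank 68 on chromosome IV, in the convergent interval between aagr-1 and D2096.7. Its summit lay 116 bp from D2096.7 and 235 bp from aagr-1, in unique sequence.
Rank 68, chrIV:8375566-8375646, plus strand: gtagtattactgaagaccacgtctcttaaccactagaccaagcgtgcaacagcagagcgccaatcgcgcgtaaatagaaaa
Its signal was 202 pooled, 64.6 in replicate 1 and 131 in replicate 2.

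The other members among the best 25 spread over X, V, IV and I. Rank 303, upstream of Y50D4C.12 on V, had a signal of 98.5 pooled, 48.0 in replicate 1 and 49.0 in replicate 2. Rank 309, at the long non-coding RNA gene linc-128 on V and 4727 bp upstream of the calmodulin gene cmd-1, had 97.8 pooled, 28.0 in replicate 1 and 67.9 in replicate 2. Rank 352, also upstream of cmd-1, had 92.2, 46.2 and 43.3.
Rank 319 lay 8408 bp upstream of the nuclear hormone receptor gene nhr-41 on IV, with 96.2 pooled, 44.4 in replicate 1 and 56.6 in replicate 2. Rank 342 lay 1410 bp upstream of lin-41, a heterochronic gene, on I, with 93.7, 38.7 and 57.7. Rank 363, between the septin gene unc-59 and the insulin-like gene ins-33 on I, had 91.0, 42.4 and 45.2. Rank 375 lay 2163 bp upstream of somi-1 on V, with 89.4, 34.2 and 56.4. Replicate 2 gave the higher signal in 6 of these 7 regions, all but rank 352. Of the 420 members found in both replicates, replicate 1 gave the higher signal in 183.

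How far the replicates matched depended on the part of the list. A candidate overlapped in both replicates for 420 of the 447 members (94.0%, interval 91.4 to 95.8%), against 44.4% of all candidates. Every member had 1 in at least 1 replicate. The other best regions were alike, with a candidate in both for 95.3% at promoters, 93.0% in gene bodies and 96.1% at non-coding genes. Among the 3000 best regions of replicate 1 were 215 members (48.1%) and of replicate 2 were 232 (51.9%), each against 11.3% of all candidates. Both lists held 85 members (19.0%, against 3.36% of candidates). A further 130 were in the best of replicate 1 only, 147 in that of replicate 2 only and 85 in neither. Of the other best regions, both lists held 28.9% at promoters, 16.6% in gene bodies and 55.7% at non-coding genes. The pooled list was made from the reads of both replicates, so these shares are not independent of the choice.

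Over the 420 members in both, the Spearman correlation of replicate signals was -0.161. It was 0.440 over the 33 optimal members and -0.402 over the other 387. Members were chosen on the pooled value, to which both replicates contribute, so the correlation only describes these regions. For comparison it was 0.0487 over the best promoter regions, -0.246 over those in gene bodies and 0.640 over those at non-coding genes. The imbalance was large for 46 members, whose rank was over 10000 in 1 replicate and under 1000 in the other. The same count was not made over the other best regions or over all candidates. It is therefore not read as particular to the members. Rank 410, upstream of zfr-1 on chromosome I, was an optimal member with rank 14037 in replicate 1 and rank 240 in replicate 2, at signals of 19.8 and 57.5.

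Base composition peaked at the summits. Within 50 bp of a member's summit G+C content had a median of 45.5% (quartiles 39.1 and 50.5%), against 34.2% in its flanks 400 bp away. It was higher at the summit than in the flanks in 378 of 447 members (84.6%, interval 80.9 to 87.6%). Lower-ranked intergenic regions had a median of 39.6% over flanks of the same 34.2%, with the summit higher in 70.3%. Promoter regions and gene-body regions among the best 3000 had medians of 46.5% and 45.5%. The part of base composition in the signal was not tested.

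**Figure D4:**
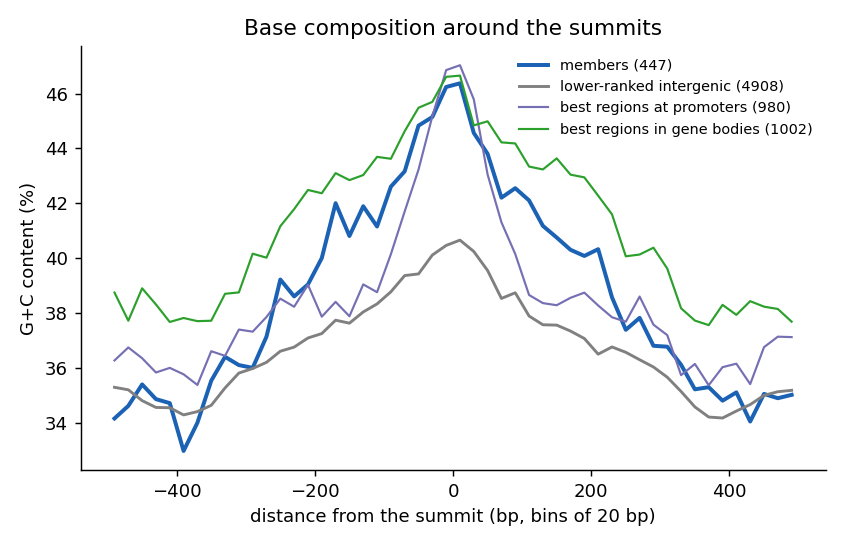
Mean G+C content (%) in 20-bp bins around the summits of members (thick blue), lower-ranked intergenic regions (grey; 1 of the 4909 regions near a chromosome end left out), and the best regions at promoters (purple) and in gene bodies (green). Members reach 46.4% just beside the summit and 34.1% at the left end, and lower-ranked regions reach 40.7%.

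E-boxes were about as frequent in members as around them. CANNTG lay within 50 bp of 133 summits (29.8%, interval 25.7 to 34.2%), in 27.6% of their flanks and in 32.5% of lower-ranked intergenic regions. Among the 33 optimal members it was 10 (30.3%). Of single E-boxes, CATATG was at 12 members (2.68%, against 1.23% of flanks and 1.43% of lower-ranked regions), CAGCTG at 12 (2.68%, against 1.68% and 2.00%) and CAGATG at 14 (3.13%, against 2.46% and 4.26%). No E-box lay at more than 23 members, the number for CAAATG (5.15%). Palindromes read the same on both strands, and an absent match says nothing about the protein.

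Sites of other factor classes were rare. The forkhead core TGTTTAC was at 7 members (1.57%), the homeobox core TAATTA at 9 (2.01%), AGATAA of GATA factors at 21 (4.70%) and TGACTCA of AP-1 factors at 2 (0.447%). The flanks held them at 1.79%, 4.81%, 6.60% and 1.34%. Motifs rich in A and T were fewer at summits. The TATA box TATAAAA was at 1.79% against 6.26% of flanks, and the polyadenylation signal AATAAA at 11.6% against 23.7%.

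A scan of short words showed the same lean. GAGAGA was at 80 members (17.9%), against 6.60% of flanks and 10.1% of lower-ranked regions. CCCCCC was at 40 (8.95%, against 1.34% and 4.16%). AAAAAA was at 104 (23.3%, against 48.2% and 36.0%). In the best regions at promoters, in gene bodies and at non-coding genes, GAGAGA was at 15.2%, 9.08% and 16.3%. In the same order, CCCCCC was at 3.98%, 3.99% and 6.13%, and AAAAAA at 26.8%, 20.9% and 20.3%. These words were picked for their difference, so the shares are a description.

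Both internal boxes of tRNA-type promoters, the A box and the B box, are bound by transcription factor IIIC for RNA polymerase III. They lay together within 100 bp of 4 members (0.895%, interval 0.349 to 2.28%) and of 0.652% of lower-ranked intergenic regions. Members chosen from replicate 1 alone held them at 0.619% and from replicate 2 alone at 0.438%. The sequence of 2 of them is shown with the boxes in capitals on either strand. In rank 2727 the second stretch in capitals joins the B box and an overlapping match to the A box on the minus strand.
Rank 897, chrIII:89281-89384, plus strand: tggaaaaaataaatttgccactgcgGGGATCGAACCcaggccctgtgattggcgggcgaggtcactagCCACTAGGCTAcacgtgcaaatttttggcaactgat
Rank 2727, chrIV:2740196-2740304, plus strand: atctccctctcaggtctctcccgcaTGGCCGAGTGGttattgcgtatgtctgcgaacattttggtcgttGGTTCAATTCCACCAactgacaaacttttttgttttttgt
Rank 897, between mrpl-40, a mitochondrial ribosomal protein gene, and pat-4, an integrin-linked kinase gene of muscle, had a signal of 68.0 pooled, 28.8 in replicate 1 and 34.7 in replicate 2. Rank 2727 lay at the annotated pseudogene Y94H6A.t1, with 53.4, 32.6 and 15.6. Another member with both boxes was rank 410, described above.

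Annotated features outside the classes of the rule touched few members. A summit lay in or within 100 bp of one in 27 members (6.04%, interval 4.18 to 8.65%), against 11.5% of lower-ranked intergenic regions. Pseudogenes accounted for 20 (4.47%, against 9.88%). Long intergenic RNA genes accounted for 4, namely linc-128 (rank 309), linc-136 (rank 522), linc-151 (rank 808) and linc-54 (rank 2823). The piRNA genes 21ur-4199 and 21ur-223 and the antisense gene anr-49 accounted for the other 3. No member lay at an rRNA gene. In linc-136 the signal was 14.9 in replicate 1 and 56.5 in replicate 2.

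In all, 351 members (78.5%) held no tandem repeat, MEX core, box pair, further annotated feature or repeated 32-mer. The optimal set held 12 of these 351, beside 33 of all 447 members and 423 of all 30000 candidates. Their median signal was 58.9 pooled, 28.6 in replicate 1 and 31.8 in replicate 2.

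Position within the intergenic space differed little from that of the lower-ranked regions. The median distance to the nearest coding start was 2498 bp (quartiles 1590 and 3986 bp), against 2609 bp. The summit was upstream of that start in 315 members (70.5%, against 67.8%). The gap between the flanking coding genes had a median of 7646 bp, against 7423 bp. Genes on both sides pointed the same way for 55.5% of members, apart for 32.7% and towards each other for 11.9% (53), against 55.1%, 31.2% and 13.4%.

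**Figure D5:**
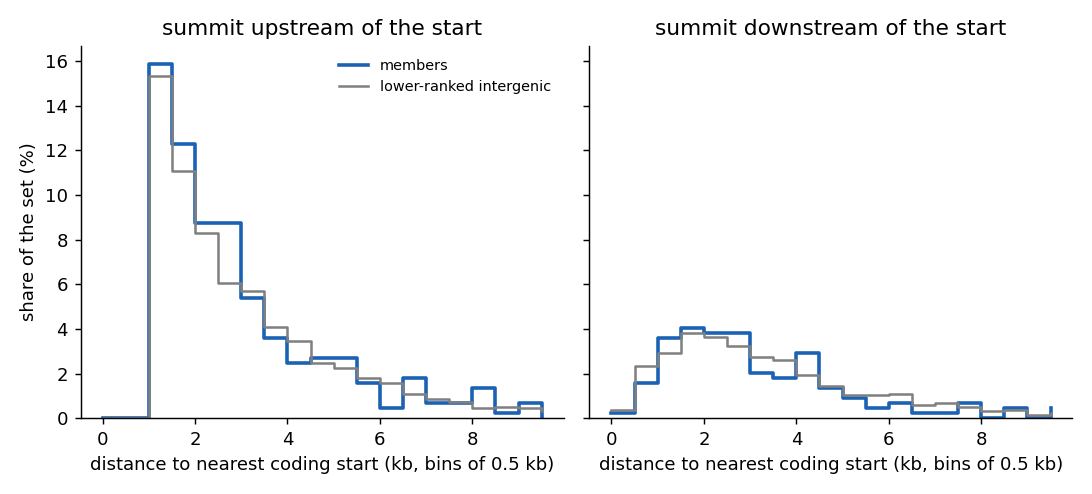
Share of members (blue) and of lower-ranked intergenic regions (grey) by distance from the summit to the nearest protein-coding start (kb, bins of 0.5 kb), for summits upstream (left) and downstream (right) of that start; distances of 10 kb or more are not drawn. Both sets fall off alike, with 15.9% of members at 1 to 1.5 kb upstream, the first bin the rule allows.

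Among the optimal members, the nearer gene edge was a 3′ end for 21 of the 33 (63.6%, interval 46.6 to 77.8%). This held for 199 of all 447 members (44.5%) and 48.2% of lower-ranked regions. The nearer edge lay at a median of 1740 bp in the 33. The position conditions keep summits away from coding starts but not from 3′ ends. Intervals between converging genes held 11 of the 33 (33.3%, interval 19.8 to 50.4%). Among them were rank 46 and rank 250, on repeats, and ranks 172, 242 and 258, with MEX cores. These 33 are part of the 447, and the difference was not tested.

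By chromosome, X held 102 members (22.8%), V 77, I and IV 69 each, II 66 and III 64. Per megabase of sequence that met the position conditions, this was 18.5 over the genome, 19.0 on X, 25.1 on I, 23.5 on III, 19.1 on II, 15.4 on V and 14.2 on IV. Lower-ranked intergenic regions followed the same order at its ends, with 300 per megabase on I and 146 on IV. X was close to the genome's value.

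Members were mostly alone in their intervals. They lay in 402 intergenic intervals, of which 37 held 2 or more, and 52 members (11.6%) had another within 2 kb. The other best regions were alike, with another of their own set that near for 10.9% at promoters, 11.0% in gene bodies and 9.81% at non-coding genes. In the larger set of 4909 lower-ranked intergenic regions it was 49.2%. The most in an interval was 5, in the 20715 bp between the chemoreceptor gene sri-5 and the zinc-finger gene ztf-6 on chromosome I, with a best rank of 2338. The interval between cutl-22 and cmd-1 on V held 4, with a best signal of 97.8, and that between somi-1 and cutl-1 on V held 4, with a best signal of 89.4.

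Nearest coding starts belonged to 415 genes, 2.09% of the 19865 coding genes. Of 27 axon guidance genes 6 (22.2%) were nearest to 7 members, among them plx-1, a plexin receptor gene, at rank 881 and 5347 bp upstream. Rank 934 lay 1180 bp upstream of the ankyrin gene unc-44, and rank 977 lay 2246 bp upstream of the ephrin gene efn-4. The same genes were nearest to 33 lower-ranked regions (0.672%, against 1.57% of members). The length of the intervals was not matched between lists.

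Genes of the bHLH class numbered 3 of 40, with hif-1 at rank 430, ref-1 at rank 2111 and mml-1 at rank 2830, and with signals of 84.8, 56.4 and 53.0. Members nearest to them were 0.671% of the total, beside 0.652% of lower-ranked regions. Nuclear hormone receptor genes numbered 9 of 269, with 2.24% of members beside 1.61% of lower-ranked regions. Homeobox genes of the ceh series numbered 4 of 63, with 0.895% beside 0.367%. Neuronal terminal selector genes numbered 2 of 30, namely ttx-1 and ceh-43, with 0.671% beside 0.489%. Of 22 pan-neuronal genes 2, unc-13 (rank 689) and snb-1 (rank 1808), both of synaptic vesicle release, were nearest to a member, with 0.447% beside 0.244%. Of 11 Hox genes and cofactors 1, unc-62, had the member of rank 419, with a signal of 85.8 at 5730 bp upstream. Of 25 body wall muscle genes 1, the myosin gene unc-54, had that of rank 471. Each was 0.224% of members beside 0.285% of lower-ranked regions.

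Other gene families lay on both sides of the genome's 2.09%. Chemoreceptor genes numbered 12 of 1292 (0.929%), with 2.91% of members beside 3.08% of lower-ranked regions. F-box genes numbered 3 of 315 (0.952%, with 0.671% beside 0.876%), C-type lectin genes 2 of 237 (0.844%, with 0.447% beside 0.876%) and neuropeptide genes 2 of 140 (1.43%, with 0.447% beside 0.917%). Collagen genes numbered 5 of 156 (3.21%, with 1.12% beside 0.611%) and ribosomal protein genes 1 of 81 (1.23%, with 0.224% beside 0.367%). BTB and MATH genes numbered 1 of 90 (1.11%, with 0.224% beside 0.489%). None of the 16 genes for GABA, monoamine or glutamate neurons and none of the 28 embryonic fate factors was nearest to a member. Nor was any of the 50 histone, 49 heat shock or 24 innexin genes of the lists. In the same order, these lists were nearest to 0.102%, 0.265%, 0.0815%, 0.183% and 0.183% of lower-ranked regions. At such small shares the absences say little.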

How the data were processed

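Region lists were deposited for each of 2 replicates and for the pooled reads (30000 candidates each), with an optimal set of 423. Per the file manifests, all used 1 control library. Coordinates are on ce11, per the labels. No source used here names the aligner, the peak caller, the scale of the signal or the threshold of the irreproducible discovery rate, and depth is unknown. The deposited signal and −log10 q-values are the authors' own. The −log10 q was not used, and signal was used only for ranks and description. The rule was read as those of the 3000 best pooled regions that met the position conditions.

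Genes came from Ensembl release 115, with 13 names from RefSeq, and sequence from RefSeq's copy of WBcel235, whose chromosome names and lengths were matched to the regions. A replicate region was matched by any overlap. Flanks were centred 400 bp from the summit, and motifs were searched on both strands within 50 bp (100 bp for MEX cores and boxes). Intervals of shares are 95% Wilson intervals and cover the number of regions only. Recomputed medians were set against a 95% interval from order statistics, and recomputed correlations against one from Fisher's z. Regions are not replicates, so no test was run. Measures were tested on simulated data first. The tools were numpy 2.4.6, scipy 1.17.1, pandas 2.3.3 and matplotlib 3.10.9 under Python 3.11.15.

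Members, motifs and gene lists were chosen with earlier results of these data known. Tandem repeats (60, 70 and 80% of bases were looked at), both MEX cores, sequence groups and the 3 words from a scan of 6-mers were added after the summit sequences had been read, and 2 gene lists were corrected after values had been seen. Described in full are the 25 members of highest signal, those at the threshold, and up to 4 of each motif or feature class and 3 of each gene list. All 9 of the main sequence family, all 6 with a MEX core and those that share the short core or a second gene feature were named after their values were seen. The remaining member with both boxes is not reported here by position or sequence.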

Additional observations from a re-analysis of the deposited data

How the results depend on the processing

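Of 172 recomputed values, 110 stayed within the interval of the reported one, 54 moved and 2 changed sign. The other 6 were numbers of members within 1.5 times of 447, at 581 and 315 with promoter windows from 500 and 2000 bp, 529 and 426 with other distances to non-coding genes, and 457 to 485 without 1 replicate. No paired analysis was possible because the 2 replicates form 1 group. The correlation of replicate signals (-0.161) became 0.440 with optimal members only and 0.0261 where a non-coding gene counted only with the summit inside it, and -0.0351 with the 1500 best regions.

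With the 1500 best regions there were 199 members. The values were 16.6% optimal, 97.5% in both replicates, 37.7% among the best of both, 15.6% converging, 50.8% same-way, 17.6% on repeated 32-mers, 6.03% with a neighbour and 11.6% on tandem repeats. With the 6000 best regions there were 989 members, with 3.34%, 83.0% and 9.0% for the first 3 measures, G+C 43.6%, 15.9% with a neighbour and 0.607% with the MEX core. With only optimal members the values were 100% in both replicates, 93.9% among the best of both, 63.6% nearer a 3′ end, 33.3%, 42.4% and 24.2% converging, same-way and diverging, 3.03% box pairs, 36.4% repeated 32-mers, 6.06% with a neighbour, 33.3% tandem repeats and 15.2% MEX cores.

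A promoter window from 500 bp gave 38.7% nearer a 3′ end, 9.12% converging and 1894 bp to a start. A window from 2000 bp gave 53.3%, 16.2%, 27.0% diverging, 3269 bp and 0.317% box pairs. Summits inside the non-coding gene gave 12.1% optimal, 24.0% among the best of both and 5.10% box pairs. Without 1 replicate, repeated 32-mers ranged from 10.7 to 16.3%, tandem repeats from 5.25 to 9.69% and G+C from 42.6 to 44.6%. Overlap of at least 50% of the region gave 89.9% in both replicates, and summits within 100 bp gave 75.4%, and 13.9% among the best of both. Windows of 25 bp gave 0% box pairs, 14.5% E-boxes and 8.95% repeated 32-mers, and wider windows gave 50.6% E-boxes, G+C 44.3% and 18.6%. Features within 250 bp came to 8.95%, neighbours within 1 kb to 6.71%, and repeats over 70% of bases to 5.37%. The cause of each change was not tested. Depth, the control reads and the placing of reads in repeats limit all values.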
